A study of Mus musculus with 16 samples.

Results

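The genes described here are the enzymes that write and remove DNA methylation in mouse cells: Dnmt1, Dnmt3a, Dnmt3b and Dnmt3l, their partner Uhrf1, and Tet1, Tet2 and Tet3. They were taken from the deposited array table as the entries whose single gene symbol is one of these 8 names, and each name had 1 such entry, so 8 of the 22180 genes tested are described. The 16 samples, in 6 groups, were each hybridised to an Affymetrix Mouse Gene 2.1 ST array. All came from 1 mouse embryonic stem cell line, iGPA-Myo7a:mVenus, which carries a doxycycline-inducible (Dox) cassette for Gfi1, Pou4f3 and Atoh1 and an mVenus fluorescent reporter under a Myo7a promoter. The line was grown as floating embryoid bodies (EBs), which are aggregates that differentiate into many cell types. Dox iHCs and Dox+RA iHCs (induced hair cell-like cells) were treated from day 4 with Dox alone or with Dox and retinoic acid (RA), and cells with mVenus signal were sorted by flow cytometry on day 8, after 4 days of treatment, or on day 12, after 8 days. Control EBs of day 8 and day 12 received neither agent and were not sorted. Each iHC group had 3 replicates and each control EB group had 2, which the submitters call biological replicates. Treatment and sorting cannot be told apart in any difference between iHCs and control EBs, and in such bulk samples fewer cells of a type and less RNA per cell cannot be told apart.

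In mammals, cytosine methylation is placed mostly on CG dinucleotides. Dnmt1 copies the pattern to the new strand after replication and is brought to hemimethylated DNA by Uhrf1, while Dnmt3a and Dnmt3b add methyl groups to unmethylated sites and Dnmt3l, which has no catalytic activity of its own, stimulates them. The Tet enzymes oxidise 5-methylcytosine to 5-hydroxymethylcytosine and further products, which are lost by dilution at replication or replaced through base excision repair. Pluripotent and early embryonic cells are known for high Dnmt3b, Dnmt3l and Tet1, and neurons for high Dnmt3a, Tet2, Tet3 and 5-hydroxymethylcytosine. The arrays measure RNA, with 1 value per gene that does not separate isoforms such as the long and short forms of Dnmt3a and Tet1, and DNA methylation itself was not analysed here.

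The labels were checked against marker genes of the cell types that the samples could hold. The hair cell list holds Gfi1, Pou4f3 and Atoh1, which the cassette itself expresses, and Myo7a, whose promoter drives the sorted reporter. Of the other 12 hair cell genes, 11 rose in Dox iHCs of day 8 and 12 in each other iHC group, and their mean log2 signal was 7.23 to 8.59 over the 12 iHC arrays against 4.7 to 4.94 over the 4 control EB arrays. Over all genes, 15.7% to 22.4% were called higher and 18.9% to 22.4% lower in the same comparisons. Neuron genes rose in 7 to 11 cases of 14 and fell in 0 to 2 (Tubb3 at day 12, and Isl1 in Dox+RA iHCs of day 12), with means of 6.42 to 7.21 in iHC arrays against 4.85 to 5.25 in control EB arrays. Of 12 mesenchyme genes 10 or 11 fell in each iHC group, and Bgn rose in Dox iHCs of day 8. Of 12 blood and endothelium genes 8 to 12 fell and 0 rose, and of 12 endoderm genes 5 to 8 fell and 0 rose. The 10 neural progenitor genes were mixed, with 4 or 5 falls and 2 or 3 rises. Sox1 and Hes5 rose in all 4 comparisons, and Slc1a3, Vim, Sox9 and Prom1 fell in all 4. The largest of these differences were those of Slc1a3, at -4.1 to -3.6. Among 24 pluripotency genes 15 to 18 fell and 1 rose. The mean signal of the pluripotency genes was 4.96 to 5.48 in iHC arrays and 5.92 to 6.58 in control EB arrays. Pou5f1, a defining pluripotency gene, differed by -0.21 ± 0.11 in Dox iHCs of day 8, and Nanog, another, fell by 2.89 ± 0.33. Replicates of a group correlated at 0.982 to 0.995 over all genes. Dox iHC replicate 3 of day 8 had the highest pluripotency and cell cycle signal of the 12 iHC arrays, and control EB replicate 2 of day 8 the highest of all 16 arrays, so calls of the 8 genes that change without either are given both ways. The part of the cell mixture in the results below was not tested.

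Across the 4 comparisons with control EBs, the writers and Tet enzymes moved in both directions. Uhrf1, Dnmt1, Dnmt3b, Dnmt3l and Tet1 were lower in all 4 iHC groups, and Tet3 was higher in all 4. Dnmt3a was higher in 3 of the 4, and Tet2 was lower in Dox+RA iHCs of day 12. Calls rest on limma, with the Benjamini-Hochberg adjustment made over the 22180 genes and a limit of 0.05. In Dox iHCs of day 8, 2 of the 8 genes rose, 5 fell and 1 was not called, where 34.6% of all genes were called, 15.7% higher and 18.9% lower. In Dox+RA iHCs of day 8, 2 rose, 5 fell and 1 was not called, where 41.6% of all genes were called, 19.6% higher and 22% lower. In Dox iHCs of day 12, 1 rose, 5 fell and 2 were not called, where 40.8% of all genes were called, 19.2% higher and 21.7% lower. In Dox+RA iHCs of day 12, 2 rose and 6 fell, where 44.8% of all genes were called, 22.4% higher and 22.4% lower. The median log2 difference of the 8 genes was -0.42 and -0.53 at day 8 and -0.51 and -0.54 at day 12 (Dox, then Dox+RA), while the median over all genes lay between 0.02 and 0.07. Arrays of iHCs and control EBs did not overlap in 8 of the 8 genes for Dox and 7 for Dox+RA at day 8, where 55.4% and 61.1% of all genes were so separated, and in 7 and 8 at day 12, where 58.3% and 64.6% were. Dox iHCs and Dox+RA iHCs of a day were set against the same 2 control arrays, so their differences are given side by side and share the error of those arrays.

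**Figure D1:**
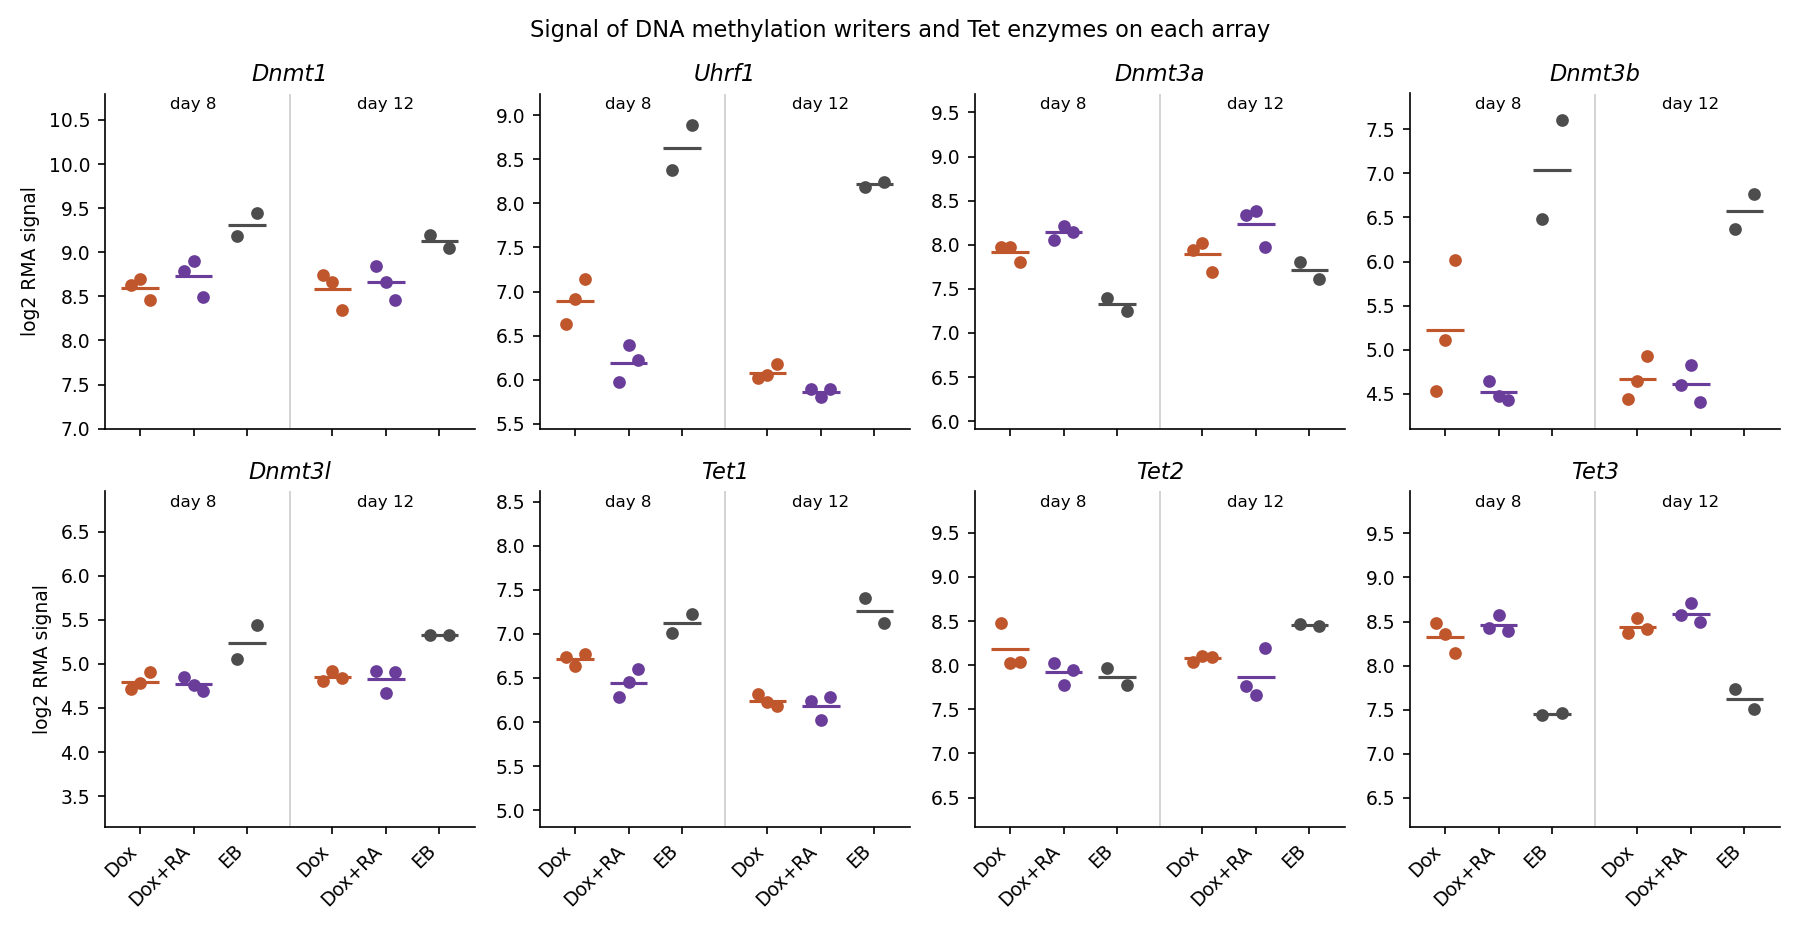
Log2 signal (vertical axis) of each of the 8 genes on each of the 16 arrays, 1 panel per gene, with the groups along the horizontal axis, 1 point per array and a bar at each group mean. The iHC and control EB points are apart for Uhrf1, Dnmt1, Dnmt3b, Dnmt3l, Tet1 and Tet3, with control EBs above except for Tet3, and they overlap for Dnmt3a and Tet2.

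Uhrf1, the protein that recognises hemimethylated CG sites, fell in all 4 comparisons. Its log2 signal was 6.63, 6.92 and 7.14 in Dox iHCs and 5.97, 6.39 and 6.22 in Dox+RA iHCs of day 8, against 8.38 and 8.89 in control EBs of day 8. The day 12 values were 6.02, 6.05 and 6.18 in Dox iHCs and 5.90, 5.80 and 5.89 in Dox+RA iHCs, against 8.19 and 8.24 in control EBs. Every iHC array lay below every control EB array, and the highest iHC array was Dox replicate 3 of day 8. By limma, Uhrf1 fell by 1.74 ± 0.16 (log2 difference and standard error, adjusted p = 7.7e-07) in Dox iHCs of day 8, which is 3.34-fold. It fell by 2.44 ± 0.16 (adjusted p = 1.6e-08) in Dox+RA iHCs of day 8. The day 12 differences were -2.13 (adjusted p = 5.6e-08) in Dox iHCs and -2.35 (adjusted p = 1.7e-08) in Dox+RA iHCs, 4.39-fold and 5.11-fold lower.

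Dnmt1, the maintenance methyltransferase itself, moved the same way by less. Its signal was 8.63, 8.70 and 8.46 in Dox iHCs and 8.79, 8.90 and 8.49 in Dox+RA iHCs of day 8, against 9.18 and 9.45 in control EBs of day 8. At day 12 it was 8.74, 8.66 and 8.35 in Dox iHCs and 8.85, 8.66 and 8.46 in Dox+RA iHCs, against 9.20 and 9.05 in control EBs. Again the 12 iHC arrays lay below the 4 control EB arrays, and the 4 iHC groups overlapped one another. Dnmt1 fell by 0.72 ± 0.16 (adjusted p = 0.0019) and by 0.58 (adjusted p = 0.0065) in Dox and Dox+RA iHCs of day 8, and by 0.55 (adjusted p = 0.0099) and 0.47 (adjusted p = 0.022) at day 12. These are falls of 1.38-fold to 1.64-fold. The smaller ones lost their call when some single arrays were left out. Leaving out a control EB array leaves 1 in that group, which limma then takes to vary like the other groups, here and in the values without a control EB array given below. Without control EB replicate 2 of day 8 the Dox+RA difference of day 8 was -0.447 (adjusted p = 0.1). Without control EB replicate 1 of day 12 the day 12 differences were -0.474 (adjusted p = 0.0894) for Dox and -0.396 (adjusted p = 0.144) for Dox+RA. The Dox+RA call of day 12 was also lost without control EB replicate 2 (adjusted p = 0.0509) or Dox+RA replicate 3 (adjusted p = 0.0856).

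Uhrf1 and Dnmt1 are known targets of E2F factors, which drive genes of DNA replication, and such genes fell beside them here. The 250 bases before each RefSeq start (GRCm38.p6) were searched on both strands for an E2F-type motif in its spellings TTTGGCGC, TTTCCCGC, TTTCGCGC and TTTGCCGC. The 2 matches among the 8 genes are shown because both lie in the maintenance pair, each in 30 bases on the gene's strand with the motif in capitals.
Dnmt1, chr9:20952824-20952853, minus strand: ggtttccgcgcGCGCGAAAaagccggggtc
Uhrf1, chr17:56304117-56304146, plus strand: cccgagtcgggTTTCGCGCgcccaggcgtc
The first has the reverse complement of the spelling that the second has in the forward direction. The Dnmt1 match begins 219 bases before the last of 3 listed starts, which lies 7265 bases downstream of the first. The Uhrf1 match begins 185 bases before the second of 2 listed starts, which lies 976 bases downstream of the first. The 250-base windows of both matches are rich in CG, with 26 CG dinucleotides in the Dnmt1 window and 30 in the Uhrf1 window. Over all windows the median is 6 and the 90th percentile is 25. The motif was in 611 of 32851 windows (1.86%). Counted by gene over all listed starts, it was in 459 of 16990 tested genes (2.7%) and in 6 of the 24 genes with a listed start of a G1/S and DNA replication list, namely Mcm5, Mcm6, Mcm7, Rfc3, Pola1 and Cdc6. It was in 2 of 12 such genes of a list of methylation partners and in 0 of 17 of a list for methyl donor and 2-oxoglutarate supply, whose genes also fell in part, as described with those lists. Dnmt3a, Dnmt3b, Dnmt3l, Tet1, Tet2 and Tet3 had no match in these windows. The motif spellings themselves contain CG, and the shares over all windows and genes were not matched for CG content. A match is a string of letters in the reference and not a measured binding site. The part of E2F factors in the falls was not tested.

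That G1/S and DNA replication list fell with the pair. Its mean log2 signal was 6.25, 6.59 and 6.75 in Dox iHCs and 6.05, 6.26 and 6.21 in Dox+RA iHCs of day 8, against 7.80 and 8.15 in control EBs of day 8. At day 12 it was 5.97, 6.12 and 6.15 in Dox iHCs and 5.99, 5.94 and 5.95 in Dox+RA iHCs, against 7.71 and 7.71 in control EBs. Of its 29 measured genes 26 or 27 fell in each comparison with control EBs, and 0 rose. All 17 mitosis genes fell in each of them, with medians of -1.93 and -2.99 in Dox and Dox+RA iHCs of day 8 and -2.79 and -3.32 at day 12. The part of cell division in the changes of Uhrf1 and Dnmt1 was not tested.

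**Figure D2:**
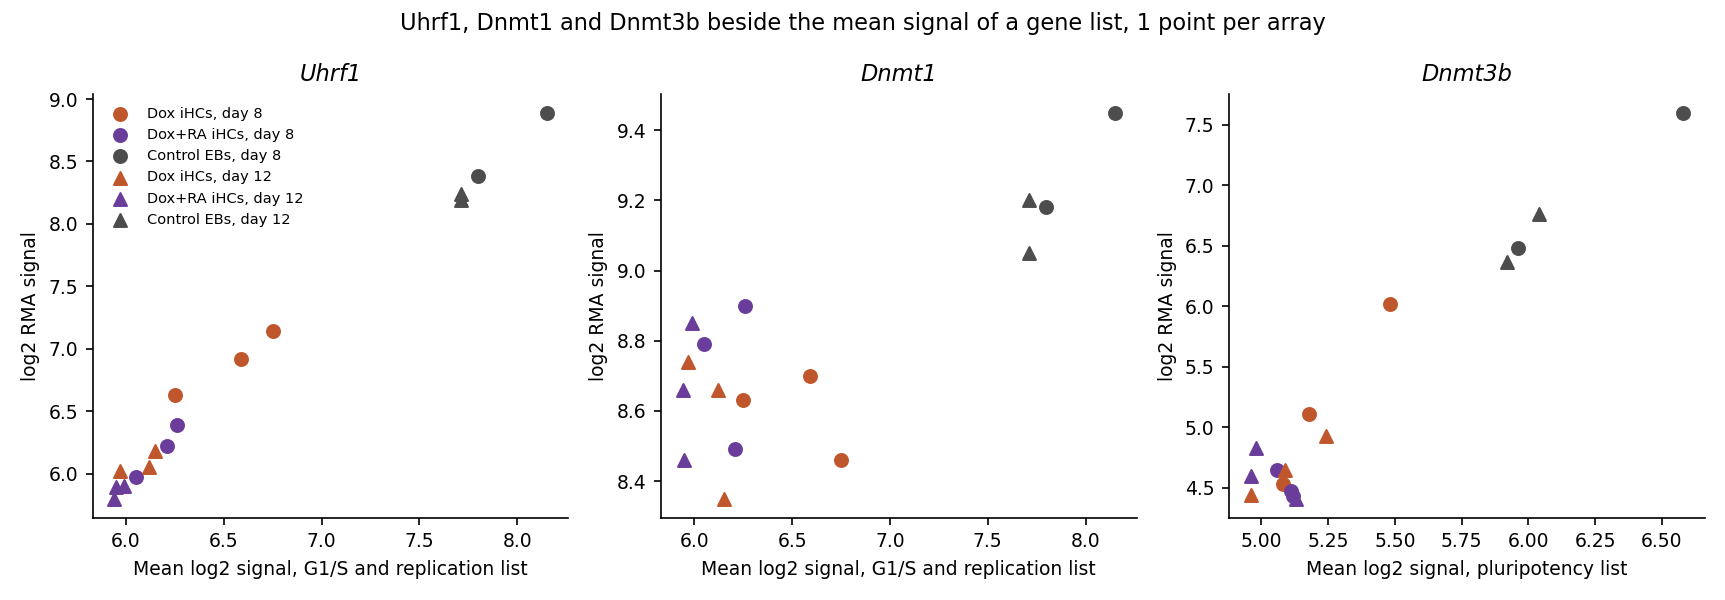
Log2 signal (vertical axes) of Uhrf1 and Dnmt1 against the mean log2 signal of the G1/S and replication list, and of Dnmt3b against that of the pluripotency list (horizontal axes), 1 point per array. Uhrf1 points lie along a rising line, Dnmt1 points of iHCs show no order by the list mean, and Dox replicate 3 of day 8 is the iHC array nearest to control EBs for Uhrf1 and Dnmt3b.

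Dnmt3b, the de novo enzyme of the early embryo, had the deepest falls beside Uhrf1 and the widest spread. Its signal was 4.53, 5.11 and 6.02 in Dox iHCs and 4.65, 4.47 and 4.43 in Dox+RA iHCs of day 8, against 6.48 and 7.60 in control EBs of day 8. The values of day 12 were 4.44, 4.65 and 4.93 in Dox iHCs and 4.6, 4.83 and 4.41 in Dox+RA iHCs, against 6.37 and 6.76 in control EBs. All iHC arrays were below all control EB arrays, and Dox replicate 3 of day 8 lay well above the other 11. Dnmt3b fell by 1.83 ± 0.35 (adjusted p = 0.00073), or 3.55-fold, in Dox iHCs and by 5.76-fold in Dox+RA iHCs of day 8 (log2 difference -2.52, adjusted p = 2.8e-05). The day 12 differences were -1.9 (adjusted p = 0.00041) in Dox iHCs and -1.95 (adjusted p = 0.00028) in Dox+RA iHCs. The mean signal of the 24 pluripotency genes on the same arrays was 5.08, 5.18 and 5.48 in Dox iHCs and 5.06, 5.11 and 5.12 in Dox+RA iHCs of day 8, against 5.96 and 6.58 in control EBs of day 8, and was likewise highest among iHCs in Dox replicate 3. The part of remaining pluripotent cells in the Dnmt3b difference was not tested. Its day 8 Dox difference was -2.23 (adjusted p = 4.08e-05) without Dox replicate 3 and -1.27 (adjusted p = 0.0274) without control EB replicate 2.

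Dnmt3a, the de novo enzyme of later and adult tissues, went the opposite way from Dnmt3b. Its signal was 7.98, 7.98 and 7.80 in Dox iHCs and 8.05, 8.21 and 8.15 in Dox+RA iHCs of day 8, against 7.40 and 7.25 in control EBs of day 8. The day 12 values were 7.94, 8.02 and 7.69 in Dox iHCs and 8.34, 8.38 and 7.98 in Dox+RA iHCs, against 7.81 and 7.61 in control EBs. Arrays of iHCs lay above control EB arrays of the same day, except that Dox iHCs and control EBs of day 12 overlapped. Dnmt3a rose by 0.60 ± 0.13 (adjusted p = 0.0023) in Dox iHCs and by 0.81 (adjusted p = 0.00013) in Dox+RA iHCs of day 8, 1.51-fold and 1.75-fold. At day 12 the Dox+RA difference was 0.52 (adjusted p = 0.0043), and the Dox difference of 0.18 ± 0.13 was not called (adjusted p = 0.33). Without control EB replicate 2 of day 12 the Dox+RA difference of that day was 0.427 (adjusted p = 0.0654).

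Dnmt3l, the cofactor, had a low signal throughout, from 4.67 to 4.92 in the 12 iHC arrays against 5.05 to 5.44 in the 4 control EB arrays, with no overlap. It fell by 0.44 ± 0.12 (adjusted p = 0.0082) and 0.48 (adjusted p = 0.004) in Dox and Dox+RA iHCs of day 8, and by 0.48 (adjusted p = 0.004) and 0.50 (adjusted p = 0.0028) at day 12. RMA, the summary behind the deposited values, compresses changes at low signal, which touches Dnmt3l and the low end of Dnmt3b. Without control EB replicate 2 of day 8 the Dnmt3l differences of day 8 were -0.245 (adjusted p = 0.195) in Dox iHCs and -0.28 (adjusted p = 0.116) in Dox+RA iHCs.

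The 3 Tet genes behaved differently from one another. Tet1, a Tet enzyme of pluripotent cells though not the only one, had a signal of 6.74, 6.64 and 6.77 in Dox iHCs of day 8. It was 6.28, 6.45 and 6.60 in Dox+RA iHCs of day 8, against 7.01 and 7.23 in control EBs of day 8. At day 12 it was 6.32, 6.23 and 6.18 in Dox iHCs and 6.24, 6.02 and 6.28 in Dox+RA iHCs, against 7.41 and 7.12 in control EBs. No iHC array reached a control EB array. The gap was wider at day 12, a change that is tested below and was not called in the main limma fit. Tet1 fell by 0.41 ± 0.12 (adjusted p = 0.018) in Dox iHCs and by 0.68 (adjusted p = 0.00034) in Dox+RA iHCs of day 8. The falls of day 12 were 2.03-fold in Dox iHCs (log2 difference -1.02 ± 0.12, adjusted p = 7.4e-06) and 2.12-fold in Dox+RA iHCs (-1.08, adjusted p = 3.4e-06). The day 8 Dox difference was -0.295 (adjusted p = 0.2) without control EB replicate 2 and -0.367 (adjusted p = 0.059) without Dox replicate 2.

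Tet3, which in its long form has the CXXC DNA-binding domain that Tet2 lacks, was the gene that rose in all 4 comparisons. The array value does not tell that form from others. Its signal was 8.48, 8.36 and 8.14 in Dox iHCs and 8.43, 8.57 and 8.39 in Dox+RA iHCs of day 8, against 7.44 and 7.46 in control EBs of day 8. The values of day 12 were 8.37, 8.54 and 8.41 in Dox iHCs and 8.57, 8.71 and 8.50 in Dox+RA iHCs, against 7.73 and 7.51 in control EBs. Every iHC array was above every control EB array. Tet3 rose by 0.88 ± 0.11 (adjusted p = 2.3e-05) and 1.01 (adjusted p = 3.5e-06) in Dox and Dox+RA iHCs of day 8, and by 0.82 (adjusted p = 3.1e-05) and 0.97 (adjusted p = 4.9e-06) at day 12. These are rises of 1.76-fold to 2.02-fold, and they held their call under all 27 alternative settings.

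Tet2, which in many tissues acts through DNA-binding partners, had no common direction. Its signal was 8.48, 8.03 and 8.04 in Dox iHCs and 8.03, 7.77 and 7.95 in Dox+RA iHCs of day 8, against 7.97 and 7.77 in control EBs of day 8. The day 12 signal was 8.04, 8.10 and 8.09 in Dox iHCs and 7.76, 7.66 and 8.19 in Dox+RA iHCs, against 8.47 and 8.45 in control EBs. The control EBs of day 12 stood above both iHC groups of that day, while at day 8 Dox iHCs lay just above control EBs and Dox+RA iHCs overlapped them. Tet2 fell by 0.59 (adjusted p = 0.0063), or 1.51-fold, in Dox+RA iHCs of day 12. In Dox iHCs of day 12 the difference was -0.39 ± 0.16 (adjusted p = 0.065), with a 95% interval from -0.73 to -0.05. At day 8 the differences were 0.31 ± 0.16 (adjusted p = 0.15) in Dox iHCs and 0.04 (adjusted p = 0.86, interval -0.29 to 0.38) in Dox+RA iHCs.

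**Figure D3:**
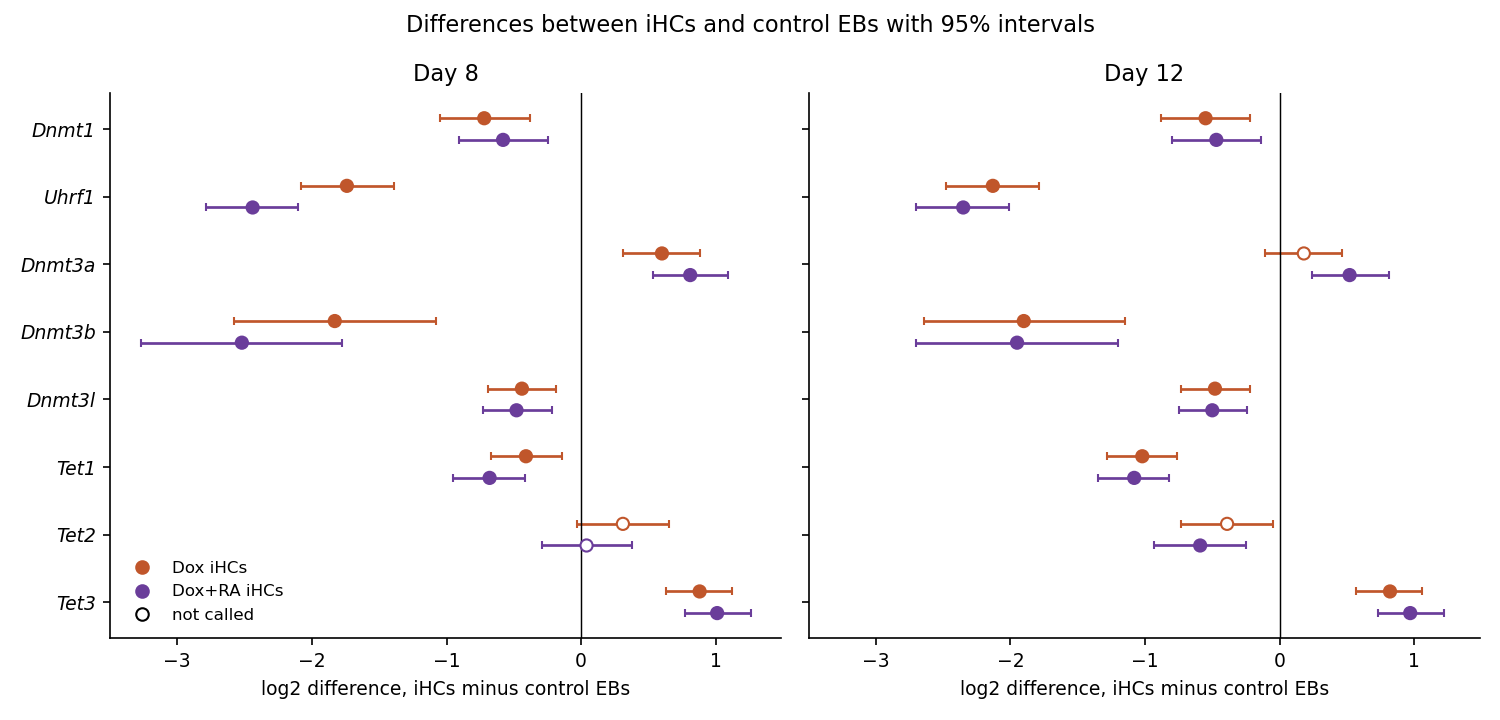
Log2 difference of iHCs minus control EBs (horizontal axis) with its 95% interval for each of the 8 genes, for Dox and Dox+RA iHCs at day 8 (left) and day 12 (right). Filled points had an adjusted p under 0.05 in limma and open points did not. Uhrf1 and Dnmt3b lie farthest to the left, Tet3 and most Dnmt3a points to the right, and 3 of the 4 Tet2 points and 1 Dnmt3a point are open.

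Dox+RA iHCs were set against Dox iHCs to ask what RA adds. At day 8 Uhrf1 was the 1 gene of the 8 that was called, and it was lower with RA, where 4.93% of all genes were called, 2.05% higher and 2.89% lower. With the replicate number as a block, used because iHC arrays of equal number varied together, 11% of all genes were called. Uhrf1 fell by 0.70 ± 0.14 (adjusted p = 0.012, and 0.00206 with the block), and the 3 Dox+RA arrays lay below the 3 Dox arrays. The call was lost without Dox+RA replicate 1 (-0.593, adjusted p = 0.0567), without Dox replicate 2 (-0.692, adjusted p = 0.059) or without Dox replicate 3 (-0.582, adjusted p = 0.0675). The mean signal of the mitosis genes moved with it, at 5.43, 5.75 and 5.76 in Dox+RA iHCs against 6.09, 6.70 and 7.01 in Dox iHCs, and 14 of the 17 fell. The remaining 7 genes differed by -0.70 to 0.21 without a call. Arrays of Dox+RA and Dox iHCs of day 8 did not overlap in 3 of the 8 genes, Uhrf1 among them, where 23.8% of all genes were so separated. Dnmt3b, at -0.70 ± 0.31 (adjusted p = 0.24), was called without Dox replicate 1 (-1.04, adjusted p = 0.0499).

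At day 12 none of the 8 genes was called between Dox+RA and Dox iHCs in limma, and 1 had an unadjusted p under 0.05, where 0.924% of all genes were called and 3.26% with the replicate block. Dnmt3a had that p, at 0.35 ± 0.12 (adjusted p = 0.22, interval 0.09 to 0.6). Uhrf1 differed by -0.22 (adjusted p = 0.6), and Dnmt3b by -0.06, with an interval from -0.73 to 0.61. Whether the RA difference itself changed between days was tested as an interaction. For Uhrf1 it was 0.48 ± 0.20 (adjusted p = 0.81), and 0 of the 8 genes were called in limma, with 1 at an unadjusted p under 0.05, where 0.00902% of all genes were called.

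Between days, Dox iHCs had lower Uhrf1 and Tet1 at day 12. These were 2 of the 8 genes, and 0 rose, where 8.05% of all genes were called (14.2% with the replicate block), 3.39% higher and 4.66% lower. Uhrf1 fell by 0.81 ± 0.14 (adjusted p = 0.0045, and 0.000657 with the block), with a difference of -0.693 (adjusted p = 0.0245) without Dox replicate 3 of day 8. Tet1 fell by 0.47 ± 0.11 (adjusted p = 0.017, and 0.00976 with the block), and its 3 day 12 arrays lay below its 3 day 8 arrays. The arrays did not overlap in these 2 genes of the 8, where 23.2% of all genes were so separated. The Tet1 call was lost without Dox replicate 2 of day 12 (-0.467, adjusted p = 0.0569) or Dox replicate 3 of day 8 (-0.447, adjusted p = 0.0701). The mean of the G1/S and DNA replication list moved with Uhrf1, at 5.97 to 6.15 on day 12 against 6.25 to 6.75 on day 8, and 12 of its 29 genes fell while 1 rose.

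In Dox+RA iHCs 0 of the 8 genes were called between day 12 and day 8 in limma, with 2 at an unadjusted p under 0.05, where 4.38% of all genes were called (1.78% higher and 2.61% lower), or 9.06% with the replicate block. Uhrf1 differed by -0.33 (adjusted p = 0.24) and Tet1 by -0.26 (adjusted p = 0.22). In control EBs 0 of the 8 were called between day 12 and day 8, with 3 at an unadjusted p under 0.05, where 3.75% of all genes were called, 2.33% higher and 1.42% lower. The day 12 and day 8 arrays did not overlap in 4 of the 8 genes in control EBs, where this held for 45.5% of all genes, and in 1 of the 8 in Dox+RA iHCs, where it held for 22.8%. The largest of these was Tet2, at 0.59 ± 0.17 (adjusted p = 0.085), followed by Uhrf1 at -0.42 (adjusted p = 0.29) and Dnmt3a at 0.38 (adjusted p = 0.22).

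The change of each gene's iHC difference between days was tested as well. For Dox iHCs against control EBs, 0 of the 8 interactions were called in limma, with 3 at an unadjusted p under 0.05, where 2.84% of all genes were called, 1.03% higher and 1.81% lower. The difference of Tet1 was lower at day 12 than at day 8 by 0.62 ± 0.17 (log2 difference -0.62, adjusted p = 0.079), and with the replicate block it was called (-0.615, adjusted p = 0.0479), although control EBs did not pair with iHCs by number. That of Tet2 gave -0.70 ± 0.22 (adjusted p = 0.13) and that of Dnmt3a -0.42 ± 0.19 (adjusted p = 0.32). For Dox+RA iHCs, 0 of 8 were called, with 2 at an unadjusted p under 0.05, where 2.62% of all genes were called, and 1.67% were called lower. Tet2 gave -0.64 ± 0.22 (adjusted p = 0.19) and Tet1 -0.40 (adjusted p = 0.32). The calls of Dnmt3a (Dox) and Tet2 (Dox+RA) at one day and not at the other are therefore not shown to be a difference between days.

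The order of the 6 group means differed between genes. For Uhrf1 it ran from 5.86 ± 0.05 (SD) in Dox+RA iHCs of day 12 through 6.08 ± 0.09 in Dox iHCs of day 12, 6.19 ± 0.21 in Dox+RA iHCs of day 8 and 6.89 ± 0.25 in Dox iHCs of day 8 to 8.22 ± 0.03 and 8.63 ± 0.36 in control EBs of day 12 and day 8. The arrays of Dox iHCs of day 12 and Dox+RA iHCs of day 8 overlapped, and those of every other pair of neighbours did not. For Tet1 the order was 6.18 ± 0.14 in Dox+RA iHCs of day 12, 6.24 ± 0.07 in Dox iHCs of day 12, 6.44 ± 0.16 in Dox+RA iHCs of day 8, 6.72 ± 0.07 in Dox iHCs of day 8, all below control EBs of day 12 and day 8 at 7.26 ± 0.21 and 7.12 ± 0.16. Arrays of the first 3 groups overlapped from one to the next, as did those of the control EBs with each other, and Dox iHCs of day 8 overlapped neither neighbour. For Tet3 the iHC group means were 8.33 to 8.59 with overlapping neighbours, against 7.62 ± 0.16 and 7.45 ± 0.01 in control EBs of day 12 and day 8. For Dnmt3a both Dox+RA groups, at 8.23 ± 0.22 and 8.14 ± 0.08 on day 12 and day 8, had higher means than both Dox groups, at 7.89 ± 0.17 and 7.92 ± 0.11. Its arrays of Dox+RA and Dox iHCs of day 8 did not overlap, where 23.8% of all genes were so separated. That difference was not called in limma (adjusted p = 0.36). For Dnmt1, Dnmt3b and Dnmt3l the 4 iHC groups were neighbours with overlapping arrays, below both control EB groups. For Tet2 the groups did not sort by treatment: control EBs of day 12 were highest at 8.46 ± 0.01, and Dox+RA iHCs of day 12 and control EBs of day 8 both stood at 7.87, with SDs of 0.28 and 0.14.

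Genes with the most similar signal over the 16 arrays were found by Pearson's r among the 18686 genes compared, as a description. The arrays fall into iHCs and control EBs, which alone gives high r, so the same was done over the 12 iHC arrays. For Uhrf1 the nearest over 16 arrays were Cip2a, Pole2 (a subunit of DNA polymerase epsilon) and Kif20a (a mitotic kinesin), at 0.996, 0.996 and 0.995. Over the iHC arrays they were Kif20a, Zgrf1 and the cyclin gene Ccnb2, at 0.988, 0.98 and 0.98. For Dnmt1 they were Xrcc5 (a subunit of the Ku DNA repair complex), Zc3hav1l and the E2F partner Tfdp1, at 0.956, 0.942 and 0.94. For Dnmt3b, Gldc (a subunit of the glycine cleavage system) and Cdca5 (sororin, which holds sister chromatids together) were nearest, both at 0.977. Dnmt3l was nearest to the pluripotency-associated Nr0b1, at 0.951, and Tet1 to Polr2m, at 0.97. Dnmt3a was nearest to Rtl6 and to Smarcc2, a chromatin remodelling subunit, at 0.944 and 0.942. Tet3 was nearest to the histone demethylase gene Kdm7a, at 0.984. Tet2 had the weakest likeness, with the transcriptional repressor gene Hbp1 nearest at 0.825. Over the iHC arrays the nearest of Dnmt1 was Rtf2 (0.944), of Dnmt3a Abcb8 (0.951), of Dnmt3b Ppfibp1 (0.935), of Dnmt3l Tmem225 (0.899), of Tet1 Laptm4b (0.947), of Tet2 Bmt2 (0.94) and of Tet3 Pcsk7 (0.918). Thus the nearest genes changed once control EBs were left out, except that Kif20a was among the 3 nearest of Uhrf1 in both.

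Genes listed as methylation partners and recruiters fell or were not called. The list is broad and also holds genes that are not recruiters. Among these is Dppa3, which fell in Dox and Dox+RA iHCs of day 8 (-0.63 and -0.64) and was not called at day 12. The mean signal of Dppa3 at day 8 was low, at 3.3 and 3.29 in these iHCs against 3.93 in control EBs. RMA compresses changes in that range. Of the 15 listed genes, 8 fell in Dox iHCs and 10 in Dox+RA iHCs of day 8, 7 and 8 fell at day 12, and 0 rose. Of all genes, 18.9% and 22% were called lower at day 8 and 21.7% and 22.4% at day 12. Their medians were -0.35 and -0.44 at day 8 and -0.38 and -0.37 at day 12. Hells, a chromatin remodeller needed for normal methylation of repeats, fell in all 4, with differences of -2.51 and -3.68 in Dox and Dox+RA iHCs of day 8 and -3.18 and -3.45 at day 12. It was also lower in Dox+RA than in Dox iHCs of day 8 (-1.17). Its partner gene Cdca7 fell in Dox iHCs of day 12 (-1.48) and in Dox+RA iHCs of day 8 (-2.22) and day 12 (-2.06), and differed by -0.92 without a call in Dox iHCs of day 8. The repressor complex genes Setdb1, a histone H3K9 methyltransferase, and Trim28, its scaffold, fell in all 4 comparisons, with differences of -1.36 to -0.97 for Setdb1 and -0.97 to -0.66 for Trim28. Cdca7l, the paralogue of Cdca7, fell in 3 (-3.02 to -2.43) and differed by -0.96 in Dox iHCs of day 8, and Pcna, the replication clamp that also holds Dnmt1, fell in all 4 (-1.36 to -0.81). Uhrf2, the paralogue of Uhrf1, was not called in any, with differences of -0.21 to 0.17.

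Genes listed as methyl-CpG readers were mixed. Not all of the list is known to bind methylated DNA selectively, and Mbd3 and Mbd6 are such cases. Of 8 measured genes 3 rose and 1 fell in Dox iHCs of day 8, 3 rose and 2 fell in Dox iHCs of day 12, and 4 rose and 2 fell in Dox+RA iHCs of both days, where 15.7% to 22.4% of all genes were called higher and 18.9% to 22.4% lower. Zbtb4, a zinc-finger protein that binds methylated CG sites, rose by 0.54 and 0.49 in Dox and Dox+RA iHCs of day 8 and by 1.13 and 1.13 at day 12. Mbd6 rose by 0.83 to 1.12 over the 4 comparisons, and Mbd3, a subunit of the NuRD complex, fell (-0.43 to -0.33). Mbd4, a glycosylase that removes thymine from mismatches at CG sites, fell in Dox and Dox+RA iHCs of day 12 (-0.78 and -1.19) and in Dox+RA iHCs of day 8 (-0.46).

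Genes listed as demethylation partners and base excision repair, only some of which act after the Tet enzymes, also moved both ways. Of 17 measured ones 6 rose and 8 fell in both iHC groups of day 8, and 4 rose and 8 fell in both of day 12, against the same shares of all genes. Gadd45b, a stress-induced gene linked to demethylation in neurons, rose by 2.42 ± 0.18 (adjusted p = 8.5e-08) and 2.01 in Dox and Dox+RA iHCs of day 8 and by 2.45 and 2.09 at day 12. Polb, the main polymerase of base excision repair, rose by 1.11 and 1.48 at day 8 and by 1.59 and 1.73 at day 12. Cxxc5, a CXXC-domain protein, rose by 1.04 to 1.61, while its relative Cxxc4, whose locus neighbours Tet2, fell in 3 of the comparisons (-0.62 to -0.42) and differed by -0.34 in Dox+RA iHCs of day 12. The cytidine deaminase family genes Apobec2 and Apobec1 went opposite ways, with Apobec2 higher (0.93 to 1.64) and Apobec1 lower (-1.64 to -0.58) in all 4 comparisons. Parp1, a sensor of DNA strand breaks, fell, with differences of -1.25 to -0.97, and so did Neil3, a glycosylase of dividing cells, at -1.4 to -0.76.

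A further list was made for the supply of methyl groups and of 2-oxoglutarate, the Tet cosubstrate. It is broad, and not all of its genes supply either. Of its 20 measured genes 1 to 3 rose and 9 to 11 fell in each comparison with control EBs. Again 18.9% to 22.4% of all genes were called lower there. Mthfd1, Shmt1 and Tyms, enzymes of folate metabolism, fell in all 4, with differences of -3.04 to -2.35 for Mthfd1, -2.21 to -1.8 for Shmt1 and -2.2 to -1.69 for Tyms. Ahcy, which clears the methyltransferase product S-adenosylhomocysteine, fell too, with differences of -2.32 to -1.65. The isocitrate dehydrogenase genes Idh1 and Idh2, whose products include 2-oxoglutarate, fell, with differences of -1.59 to -0.77 for Idh1 and -2.01 to -0.86 for Idh2. Ahcyl2, a relative of Ahcy, rose by 0.72 to 0.96.

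Germline genes whose promoters are kept silent by methylation in somatic cells had 0 rises and 1 to 3 falls among 14 measured genes in each comparison with control EBs, where 18.9% to 22.4% of all genes were called lower. Their medians were -0.06 to -0.04, and their mean log2 signal was only 3.26 to 3.42 over the 16 arrays, a range in which RMA compresses changes. Ddx4, a germ cell helicase, fell by 0.49 and 0.55 in Dox and Dox+RA iHCs of day 8, and Dazl, a germ cell RNA-binding protein, fell by 0.36 in Dox iHCs of day 12 and by 0.38 in Dox+RA iHCs of day 8. Both are also germ cell markers, a list of which 3 to 6 of 8 genes fell in the 4 comparisons.

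**Figure D4:**
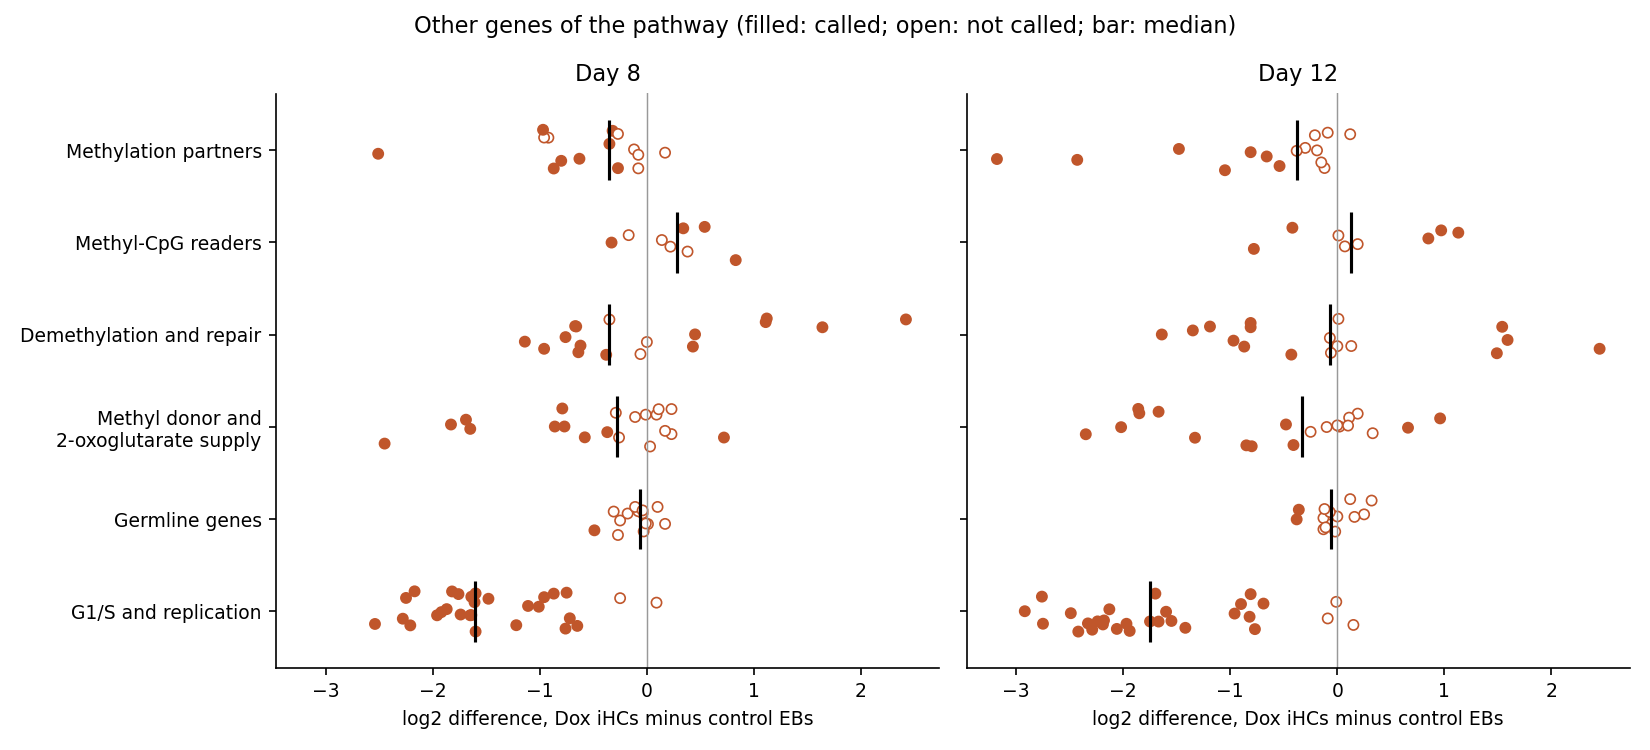
Log2 difference of Dox iHCs minus control EBs (horizontal axis) for each gene of 6 lists at day 8 (left) and day 12 (right), with filled points called, open points not called and a bar at each list's median. Nearly all G1/S and replication genes lie to the left, germline genes lie near 0, and demethylation and repair genes spread to both sides.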

How the data were processed

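The deposited values are log2 RMA signal, which the authors computed in Affymetrix Expression Console (version unstated), per the submitters' processing notes. RMA subtracts background, equalises the distributions of the arrays and condenses the probes of each transcript cluster into 1 value. The values were used as deposited and hold no detection calls, so the number of arrays limits the precision. The sources used here do not give strip or scan batches. Of 33708 entries, 23521 carry 1 gene symbol in the platform annotation. For genes with several entries the one with the highest mean was kept, which left 22180 genes, and entries with several symbols or none were left out. The fit, in limma 3.58.1 under R 4.3.3, held 6 group means and used lmFit, contrasts.fit and eBayes, in 9 differences between groups and 3 interactions. Every adjusted p is limma's with Benjamini-Hochberg adjustment over all genes of that contrast, a gene is called under 0.05, ± beside a difference is a standard error, and intervals cover 95%. Groups have 3 replicates (iHCs) or 2 (control EBs). Each p-value sets a difference against the spread between replicates, which limma estimates over all 6 groups together and moderates across genes.

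The 8 genes and all gene lists were chosen with earlier results of these data known. The text gives all 8 genes, and of each list a part of the up to 4 genes with the largest called differences in a comparison. Hells, Cdca7, Uhrf2, Pcna, Dppa3, Cxxc4, Cxxc5 and Ahcy could be named whatever their values. Pou5f1, Bgn, Tubb3, Isl1, Idh1 and Ahcyl2 were chosen after their values were seen. Genes of a list without a single-symbol entry were not analysed here. Promoter sequences are from RefSeq (GRCm38.p6). The replicate numbers were checked for pairing: deviations from the group means correlated by 0.147 to 0.513 in all 18 same-numbered pairs of iHC arrays, and above 0.1 in 7 of 18 pairs with control EBs, so counts with the block stand beside those comparisons among iHCs where it moved them by over 1.5 times. The block changed no call of the 8 genes among iHCs. The fit was tested on simulated data. Tables were made with Python 3.11.15 and pandas 2.3.3, and figures with matplotlib 3.10.9.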

Additional observations from a re-analysis of the deposited data

How the results depend on the processing

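Each of the 96 differences of the 8 genes was refitted under 27 alternatives, 16 of which left out 1 array. Of 2592 values 2562 stayed on their side of the threshold, 19 lost a call, 11 gained one and 0 changed direction of a call. Of the 28 calls against control EBs 21 held throughout. The replicate block was fitted over all 16 arrays, control EBs included. With it, 1 gene was called between days in control EBs (Tet2, adjusted p = 0.0455) and 1 in the Dox interaction with day (Tet1, -0.615, adjusted p = 0.0479). The block also gave a call of Tet2 in Dox iHCs of day 12 (-0.414, adjusted p = 0.0361). Tet2 was also called there with only the arrays compared (adjusted p = 0.0192) and with array weights (adjusted p = 0.0426). At an adjusted p under 0.01, 0 genes were called between Dox+RA and Dox iHCs of day 8 and 1 between Dox iHCs of day 12 and day 8. With 1 array left out, the number called was 0 to 2 between Dox+RA and Dox iHCs of day 8, 1 to 2 in Dox iHCs between days, 0 to 1 in control EBs between days and 0 to 1 in the Dox+RA interaction with day, where Tet2 was called without Dox+RA replicate 3 of day 12 (-0.795, adjusted p = 0.0439). The number of all genes called moved by over 1.5 times with the replicate block, which gave 2436 against 1094 between Dox+RA and Dox iHCs of day 8, 722 against 205 at day 12, 3139 against 1785 in Dox iHCs between days, 2010 against 972 in Dox+RA iHCs and 1255 against 831 in control EBs. With only the arrays compared these were 29 at day 12, 420 in Dox iHCs between days and 553 in control EBs, and with array weights 2277, 635, 3023 and 2299 in the first 4. For the interactions with day the block gave 1430 against 630 (Dox), 1150 against 582 (Dox+RA) and 15 against 2 (RA difference). With 1 array left out these counts were 333 to 1559, 55 to 393, 644 to 2598, 297 to 1297 and 317 to 951 for the 5 comparisons in the same order, and 266 to 1068, 268 to 718 and 1 to 15 for the interactions, so the shares of all genes printed beside them are loose. Without Dox replicate 3 of day 8 the count was 416 between Dox+RA and Dox iHCs of day 8 and 784 in Dox iHCs between days, and without control EB replicate 2 of day 8 it was 317 in control EBs, and 266 and 268 for the interactions with day. The cause was not tested. The signal of Dnmt3l was low. With 2 control arrays per day, some calls of Dnmt3l and Dnmt1 against control EBs were lost when 1 array was left out.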
